A study of Mus musculus with 18 samples.

Results

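The fibroblast growth factor (FGF) ligands and receptors of mouse pluripotent stem cells were followed as 9 genes, a set given by gene name and not by measured level: the ligands *Fgf4*, *Fgf5*, *Fgf8*, *Fgf15* and *Fgf17* and the receptors *Fgfr1*, *Fgfr2*, *Fgfr3* and *Fgfr4*. All 9 are among the 35773 genes counted, and all 9 passed the filter on low counts that left 16901 genes for testing (at least 10 counts in at least 3 samples). PolyA RNA was sequenced from 18 samples, 3 in each of 6 groups, all labelled wild type and of strain 129S2/SvPasCrl. The study's methods also describe embryos sired by reporter males of mixed genetic background, so lines may differ in background. Naive embryonic stem cells (ESCs) were kept in 2i/LIF, that is with inhibitors of MEK and GSK3 plus leukaemia inhibitory factor. AFSCs were primed cells grown with activin A and FGF2, so their medium itself held an FGF ligand. Advanced pluripotent stem cells (ASCs) were derived from AFSCs in ABCL medium (activin A, BMP4, the GSK3 inhibitor CHIR99021 and LIF), and ESC-ASCs were ESCs moved into ABCL. Epiblast-like cells (EpiLCs) and epiblast stem cells (EpiSCs) completed the set, and the labels give no medium for them. The labels do not say whether the 3 samples of a group came from separate cultures or lines, and p-values therefore measure the spread between these samples only.

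FGF ligands are secreted proteins that bind receptor tyrosine kinases at the cell surface together with heparan sulfate. The activated receptor passes the signal through the adaptor FRS2, GRB2 and RAS to the kinases MEK and ERK, and ERK activity switches on genes such as the Sprouty and DUSP inhibitors that dampen the pathway. In the early mouse embryo FGF4 comes from the epiblast and its precursors, and FGF/ERK signalling is known to drive cells out of the naive state, which is why the 2i medium blocks MEK. *Fgf5* is a classical marker of the postimplantation epiblast, and *Fgf8* is made in the posterior epiblast and primitive streak. FGFR1 and FGFR2 are the receptors best known from the epiblast and the primitive endoderm.

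The start regions of 5 of the 9 members were matched in RefSeq (GRCm38.p6). Those of *Fgf4* and *Fgf5* are shown because these ligands had opposite orders across the groups, and that of *Fgfr3* because this receptor was close to absent in ESCs and highest in ABCL medium. The stretches are chr7:144861136-144861385 for *Fgf4*, chr5:98253934-98254183 for *Fgf5* and chr5:33721474-33721673 for *Fgfr3*, all on the plus strand. They end just before the exon in which the RefSeq start of *Fgf4* or *Fgf5* lies and, for *Fgfr3*, just before the first exon annotated in the window. Capitals mark GC boxes (GGGCGG) and CCAAT boxes (CCAAT), read on either strand.
Fgf4: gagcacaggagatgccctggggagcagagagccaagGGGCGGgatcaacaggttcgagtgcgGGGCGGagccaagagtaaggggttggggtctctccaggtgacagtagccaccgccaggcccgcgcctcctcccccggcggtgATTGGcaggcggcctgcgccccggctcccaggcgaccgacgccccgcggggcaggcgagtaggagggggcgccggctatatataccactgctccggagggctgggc
Fgf5: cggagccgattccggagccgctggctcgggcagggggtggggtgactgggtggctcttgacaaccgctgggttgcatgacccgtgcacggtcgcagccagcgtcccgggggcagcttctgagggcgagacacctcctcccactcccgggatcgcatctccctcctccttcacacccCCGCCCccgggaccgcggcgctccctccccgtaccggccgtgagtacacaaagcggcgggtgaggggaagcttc
Fgfr3: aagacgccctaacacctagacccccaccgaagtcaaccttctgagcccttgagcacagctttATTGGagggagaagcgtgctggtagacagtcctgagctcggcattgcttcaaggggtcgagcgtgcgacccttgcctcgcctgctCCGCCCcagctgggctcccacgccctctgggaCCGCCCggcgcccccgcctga

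The *Fgf4* stretch held 2 GC boxes, 1 CCAAT box and 21 CpG dinucleotides in 250 bases, and the *Fgf5* stretch 1 GC box and 24 CpGs. The shorter *Fgfr3* stretch of 200 bases held 2 GC boxes, 1 CCAAT box and 14 CpGs. GC boxes are common letters in such windows, being present in 32.7% of 32851 start regions of 250 bases, and CCAAT boxes in 33.8%. The TATA box (TATAAA, 12.4% of windows), the TCF/LEF motif (ATCAAAG, 3.21%), the STAT motif (TTCCNGGAA, 0.913%), the octamer (ATGCAAAT, 1.6%), the ETS motif (CCGGAAG, 6.91%) and the SMAD palindrome (GTCTAGAC, 0.167%) were searched on both strands and had no match in the 3 stretches. The search was for these exact letters only. Near its end the *Fgf4* stretch reads TATATATA, a TATA-like run that TATAAA does not match. The *Fgf4* stretch lies inside the gene model used for counting (chr7:144847367-144865243), which also holds an exon farther upstream. *Fgf4* and *Fgf15* (chr7:144896531-144900953) are neighbours on chromosome 7, 31287 bases apart and on the same strand.

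Levels are given throughout as normalized read counts per kb, the count divided by the sample's DESeq2 size factor and by the kilobases of exon in the gene model, as mean ± SD with n = 3. Total counts were 4961934 to 9906473 in 15 libraries and 17813619 to 18071600 in the 3 ESC-ASC libraries, so depth cannot be told apart from that group. Replicate 1 of the ESCs, ASCs, EpiLCs and AFSCs stood apart from replicates 2 and 3 of its own group over all genes, and calls that change without the first replicates are given with the results or in the closing section. The naive markers followed the labels. The summed level of 7 naive markers was 2938 to 5256 in ESCs, ASCs and ESC-ASCs. It was at most 191.5 in EpiLCs, 24.6 in AFSCs and 10.4 in EpiSCs. Other markers did not all do so. By quantitative RT-PCR, another assay, the paper reports *Gata4* and *Gata6* as a distinctive trait of AFSCs, with strong *Sox17*. Whether the lines in that assay were those sequenced here is not known. In these RNA-seq counts *Gata4* was lowest in AFSCs (mean 0.407). *Gata6* and *Sox17* averaged 2.39 and 1.51 in AFSCs and were highest in EpiSCs (26.5 and 34.6). Of 4 trophoblast markers, *Cdx2* was highest in ESCs (mean 94.9), but the others were not. *Gata3* was highest in ASCs (13.6, against 5.03 in ESCs). *Krt7* was highest in EpiSCs and ESC-ASCs (13.9 and 13.8, against 1.17 in ESCs), and *Elf5* averaged at most 0.203 in any group. In bulk RNA, fewer cells with a transcript and less transcript per cell cannot be told apart.

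*Fgf4*, the ligand of the naive epiblast, was high in 4 groups and low in the primed AFSCs and EpiSCs. The ESC samples had 720.4, 603 and 680.5 normalized read counts per kb, the ESC-ASC samples 585, 624 and 565, the ASC samples 539, 469 and 439, and the EpiLC samples 449.5, 450.5 and 448. The AFSC samples had 78.0, 71.0 and 76.5, and the EpiSC samples 12.3, 16.8 and 13.4. No AFSC or EpiSC sample came near the range of the other 4 groups. The mean in ESCs (668 ± 59.6) was above that in ASCs (482 ± 51.2; fitted fold 1.40, log2 difference of ASCs from ESCs -0.49 ± 0.118 SE, adjusted p = 0.00209), a call that was lost without normalization factors (adjusted p = 0.109) and with only those groups in the fit (adjusted p = 0.0562). Folds from here on are those fitted by edgeR unless given as a ratio of counts or against a floor. AFSCs (75.2 ± 3.67) lay 6.30-fold below ASCs (adjusted p = 2.97e-12), and EpiSCs (14.2 ± 2.35) lay 5.28-fold below AFSCs (adjusted p = 2.47e-10). In the order of the 6 groups, ESCs and ESC-ASCs did not differ beyond their spread (adjusted p = 0.175), nor did ASCs and EpiLCs (adjusted p = 0.597). Adjusted p-values here come from the quasi-likelihood test of edgeR, corrected over the 16901 genes by the Benjamini-Hochberg method.

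*Fgf5*, the marker of the postimplantation epiblast, ran the other way. None of the 3 ESC libraries held a count, the ASC libraries held 2, 2 and 1, and the ESC-ASC libraries 1, 2 and 0, in spite of the greater depth of the last. The EpiLC samples had 252, 259 and 287 normalized read counts per kb, the AFSC samples 399, 621 and 586, and the EpiSC samples 708, 864 and 779. These 3 groups did not overlap with the naive-marked groups at any point. Taking 3 counts per ESC library as the floor, *Fgf5* was at least 157-fold higher in EpiLCs, at least 315-fold higher in AFSCs and at least 461-fold higher in EpiSCs than in ESCs. Against ASCs, with 5 counts in all, the ratio of normalized counts in AFSCs was 762 (95% interval for counting error only, 326 to 2350; adjusted p = 1.52e-13). EpiSCs exceeded AFSCs by 1.45-fold (adjusted p = 0.0149), which was lost without EpiSC replicate 2 (adjusted p = 0.0663) and without AFSC replicate 1 (adjusted p = 0.0533), and AFSCs exceeded EpiLCs by 1.01 ± 0.166 on the log2 scale (adjusted p = 9.12e-05). The counts of 0 to 2 in ESCs, ASCs and ESC-ASCs are at or under the floor, and no fold between these groups is given, although the test called ASCs above ESCs (adjusted p = 0.0353, and 0.0694 by DESeq2).

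*Fgf8*, the ligand of the primitive streak and posterior epiblast, rose in steps to the highest level of any member. It had 2 to 9 counts per library in ESCs and ASCs and 14 to 25 in ESC-ASCs. The EpiLC samples had 133, 87.8 and 109 normalized read counts per kb, the AFSC samples 776, 442 and 719.8, and the EpiSC samples 2466, 1884 and 2284. The lowest sample of each of these groups lay above the highest of the one before it. AFSCs exceeded EpiLCs by 2.56 ± 0.227 on the log2 scale (adjusted p = 3.09e-08), and EpiSCs exceeded AFSCs by 3.39-fold (adjusted p = 2e-06). Means of 4.13 in ESCs, 5.003 in ASCs and 6.79 in ESC-ASCs did not differ beyond their spread (adjusted p = 0.592 and 0.453 between neighbours). The summed level of 7 markers of primitive streak and mesoderm was 939 to 1012 in EpiSCs and 208 to 346 in AFSCs, against 19.3 to 32.9 in EpiLCs, 94.8 to 122 in ASCs, 39.8 to 44.8 in ESC-ASCs and 26.9 to 34.0 in ESCs, with *T* at 417 ± 14.3 and *Eomes* at 472 ± 27.6 in EpiSCs. *T* and *Eomes* made up most of the sum in EpiSCs, where *Mixl1* (63.0 ± 6.61) and *Evx1* (16.8 ± 1.18) were also highest. *Hand1* was highest in ASCs (38.9 ± 7.77, against 0.366 ± 0.335 in EpiSCs). *Mesp1* was at most 2.35 and *Tbx6* at most 3.53 on average in any group. The sum was thus highest where *Fgf8* was highest, but was not higher in EpiLCs than in ESCs, ASCs or ESC-ASCs, where *Fgf8* was lower. The part of such cells in the level of *Fgf8* was not tested.

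*Fgf15*, the mouse counterpart of the hormone-like FGF19, did not follow the order of *Fgf5* and *Fgf8*. The EpiSC samples had 581, 495 and 554 normalized read counts per kb and the EpiLC samples 162, 140.0 and 121. The AFSC samples, although primed, had 33.0, 23.1 and 27.4, close to the ESC-ASC samples with 25.6, 31.0 and 21.2, and the ASC samples had 16.6, 11.9 and 11.8. The ESC libraries held 3, 1 and 1 counts. AFSCs thus lay between EpiLCs and ASCs, 19.4-fold below EpiSCs (fitted log2 difference -4.27 ± 0.2, adjusted p = 8.03e-12) and below EpiLCs by 2.34 ± 0.192 on the log2 scale (adjusted p = 1.06e-08). ASCs exceeded ESCs by a count ratio of 18.6 (95% counting interval 7.74 to 58.3; adjusted p = 3.61e-07), and ESC-ASCs exceeded ESCs by 36 (15.3 to 111; adjusted p = 1.94e-09). ESC replicate 1 held 3 of the 5 ESC counts, and without it the fitted log2 difference of ASCs from ESCs went from 4.11 to 5.01, that of EpiLCs from ESCs from 7.53 to 8.42, that of EpiSCs from ESCs from 9.46 to 10.3, and that of ESC-ASCs from ESCs from 5.07 to 5.96. Of the exon bases of *Fgf15*, 24.9% are shared with *Gm26793* on the other strand, and the counting did not use the strand, so reads of both genes cannot be told apart there. The *Gm26793* count was 12.2 to 61.3% of that of *Fgf15* in the 15 libraries with at least 10 *Fgf15* counts.

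*Fgf17*, a close relative of *Fgf8*, stayed low and set ESC-ASCs apart from the other naive-marked cells. The ESC samples had 5.84, 5.52 and 6.61 normalized read counts per kb, the ASC samples 5.12, 9.23 and 11.7, and the EpiLC samples 12.3, 10.5 and 6.98. The ESC-ASC samples had 26.1, 33.3 and 24.1, the AFSC samples 38.3, 30.9 and 41.8, and the EpiSC samples 35.8, 42.3 and 37.3. Every ESC-ASC sample was above every ESC, ASC and EpiLC sample. ESC-ASCs (27.8 on average) exceeded ASCs by 3.21-fold (adjusted p = 3.62e-05) and ESCs by 4.54-fold (adjusted p = 3.67e-06), while they did not differ from AFSCs beyond the spread (adjusted p = 0.0946). Within the *Fgf8* subfamily, *Fgf8* was 44.5 to 68.9 times *Fgf17* per kb in EpiSC samples but 0.152 to 0.386 times *Fgf17* in ESC-ASC samples.

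**Figure D1:**
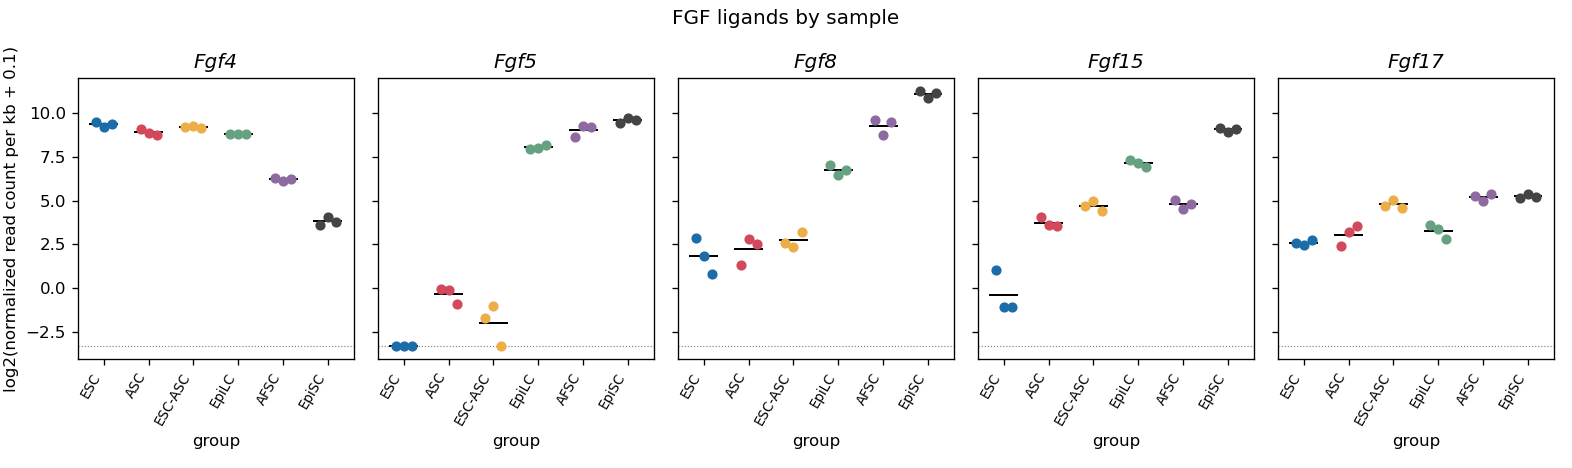
Levels of the 5 FGF ligands in every sample, as log2 of normalized read counts per kb plus 0.1 (vertical axis), by group (horizontal axis). Points are samples, bars the mean of the 3 logged values and the dotted line a count of 0. *Fgf4* falls from ESCs (668 on average) to EpiSCs (14.2) while *Fgf5* and *Fgf8* rise, and *Fgf15* is lower in AFSCs (27.9) than in EpiLCs (141).

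Among the 5 member ligands, the one with the highest level changed with the state of the cells. Ligands outside the set are not in these shares, among them *Fgf3* at 62.9 ± 10.2 and *Fgf10* at 18.4 ± 1.87 per kb in ESCs. Of the summed level of the 5 ligands, *Fgf4* made up 98.4% ± 0.404 in ESCs, 94.5% ± 0.981 in ASCs and 90.7% ± 0.664 in ESC-ASCs. In EpiLCs the share of *Fgf4* was 46.1% ± 1.47, beside 27.3% ± 2.25 for *Fgf5*, 14.4% ± 1.83 for *Fgf15* and 11.2% ± 1.95 for *Fgf8*. EpiLCs were the only group here in which 4 ligands each took over 10% of the sum. In AFSCs *Fgf8* (48.5% ± 10.8) and *Fgf5* (40.9% ± 11.1) were within their spread of each other, and in EpiSCs *Fgf8* (61.4% ± 3.96) was ahead of *Fgf5* (22.0% ± 3.83), *Fgf15* (15.1% ± 0.141) and *Fgf4* (0.4% ± 0.0972). The sum itself was lowest in ASCs, at 469 to 564 per kb, and highest in EpiSCs, at 3302 to 3804. With the length of the longest coding transcript in place of all exon bases, *Fgf15* reached 21.3% ± 0.0826 in EpiSCs and passed *Fgf5* (18.3% ± 3.3), so the order of these in EpiSCs depends on the length used.

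**Figure D2:**
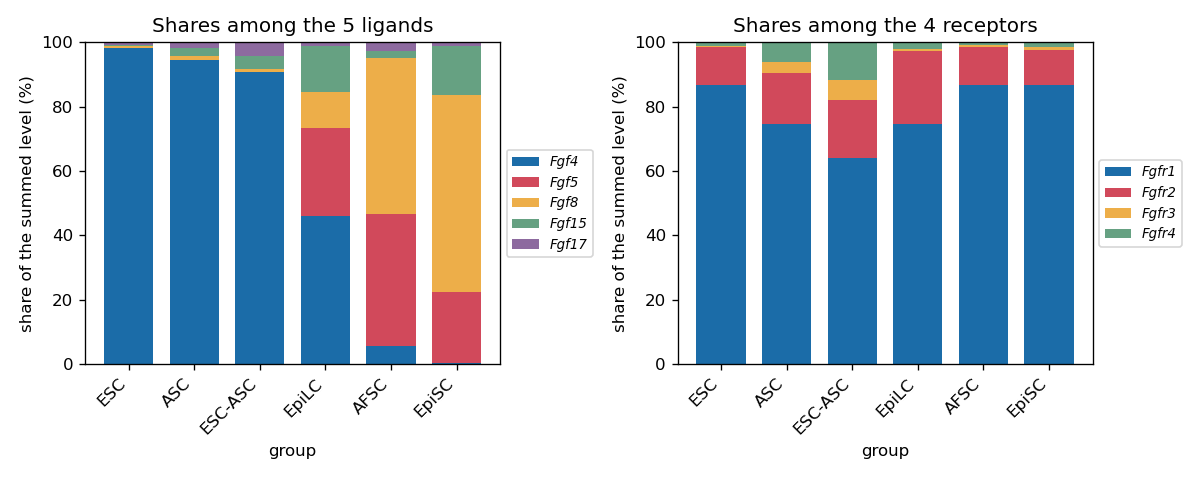
Mean share (%, vertical axis) of each gene in the summed level per kb of the 5 ligands (left) and of the 4 receptors (right), by group (n = 3 each). *Fgf4* fills 98.4% of the ligand bar in ESCs and 0.4% in EpiSCs, while *Fgfr1* is the tallest receptor segment in every group (64.0 to 86.8%).

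*Fgfr1* was the most abundant of the 4 receptors with a kinase domain in every one of the 18 samples, and its level varied less than that of the ligands. The EpiSC samples had 180.5, 174.5 and 173 normalized read counts per kb, the AFSC samples 191, 116 and 176, and the ESC samples 135, 110.2 and 112. The ASC samples had 115, 104 and 97.7, the EpiLC samples 84.4, 95.3 and 88.9, and the ESC-ASC samples 60.5, 69.4 and 59.7. The ESC-ASC samples were the lowest 3 of all 18. ESC-ASCs lay 1.89-fold below ESCs (log2 difference -0.92 ± 0.151, adjusted p = 3.53e-05) and 1.66-fold below ASCs (adjusted p = 0.000556). EpiSCs exceeded ASCs by 1.68-fold (adjusted p = 0.000234) and ESCs by 1.47-fold (adjusted p = 0.00323), and AFSCs exceeded ASCs by 1.55-fold (adjusted p = 0.0012). EpiSCs and AFSCs did not differ beyond their spread (adjusted p = 0.584), and neither did ESCs and ASCs (adjusted p = 0.304). The lower level in EpiLCs than in ESCs (log2 difference -0.40 ± 0.151, adjusted p = 0.0308) was lost without the first replicates (adjusted p = 0.0906), without ESC replicate 1 alone (adjusted p = 0.105) and without EpiLC replicate 1 (adjusted p = 0.0729) or EpiLC replicate 3 (adjusted p = 0.0708).

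*Fgfr3* and *Fgfr4* were minor receptors that were highest in both cell types kept in ABCL. For *Fgfr3* the ESC-ASC samples had 6.36, 6.62 and 5.13 normalized read counts per kb and the ASC samples 6.03, 5.80 and 2.45, while the EpiSC samples had 2.20, 1.97 and 1.60. The EpiLC libraries held 6, 10 and 4 *Fgfr3* counts, the AFSC libraries 9, 3 and 8, and the ESC libraries 1, 2 and 1. Every ABCL sample was above every sample of the other 4 groups. Relative to ESCs the count ratio was 19.4 in ASCs (95% counting interval 7.33 to 72.6; adjusted p = 4.51e-06) and 24.5 in ESC-ASCs (9.44 to 90.5; adjusted p = 3.89e-07), and ASCs exceeded AFSCs, from which they were derived, by 2.09 ± 0.393 on the log2 scale (adjusted p = 0.000142). ASCs and ESC-ASCs did not differ beyond their spread (adjusted p = 0.33). The higher level in EpiLCs than in ESCs (adjusted p = 0.0288) rested on 4 to 10 counts against 1 to 2, and was lost on leaving out any 1 of the ESC libraries or EpiLC replicate 1 or 2 (adjusted p up to 0.114).

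For *Fgfr4*, the receptor that pairs with FGF15 in the liver, the ESC-ASC samples had 8.99, 14.3 and 11.5 normalized read counts per kb and the ASC samples 7.62, 9.97 and 8.05. The EpiSC samples had 2.59, 2.99 and 3.50, the EpiLC samples 2.61, 2.25 and 2.12, the ESC samples 1.67, 1.64 and 1.26, and the AFSC samples 1.90, 0.654 and 1.76. As for *Fgfr3*, no sample outside ABCL reached the lowest sample inside it. ASCs exceeded ESCs by 2.46 ± 0.351 on the log2 scale (adjusted p = 1.36e-05) and AFSCs by 2.53 ± 0.342 (adjusted p = 3.49e-06), and ESC-ASCs exceeded ESCs by 2.91 ± 0.327 (adjusted p = 3.8e-07). ESC-ASCs and ASCs did not differ beyond their spread (adjusted p = 0.115). The level in EpiSCs was called above that in ESCs (adjusted p = 0.0465) and AFSCs (adjusted p = 0.0429), both on 2 to 13 counts per library. The first call was lost by DESeq2 (adjusted p = 0.0952) and without any 1 of the ESC libraries (up to 0.156) or EpiSC replicate 2 or 3 (0.0703 and 0.128). The second was lost by DESeq2 (adjusted p = 0.0922) and without AFSC replicate 2 or 3 (0.236 and 0.0526) or EpiSC replicate 2 or 3 (0.0744 and 0.133). Across the 18 samples the logged levels of *Fgfr3* and *Fgfr4* had a Pearson r of 0.886, a description over samples that share their groups and depth.

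**Figure D3:**
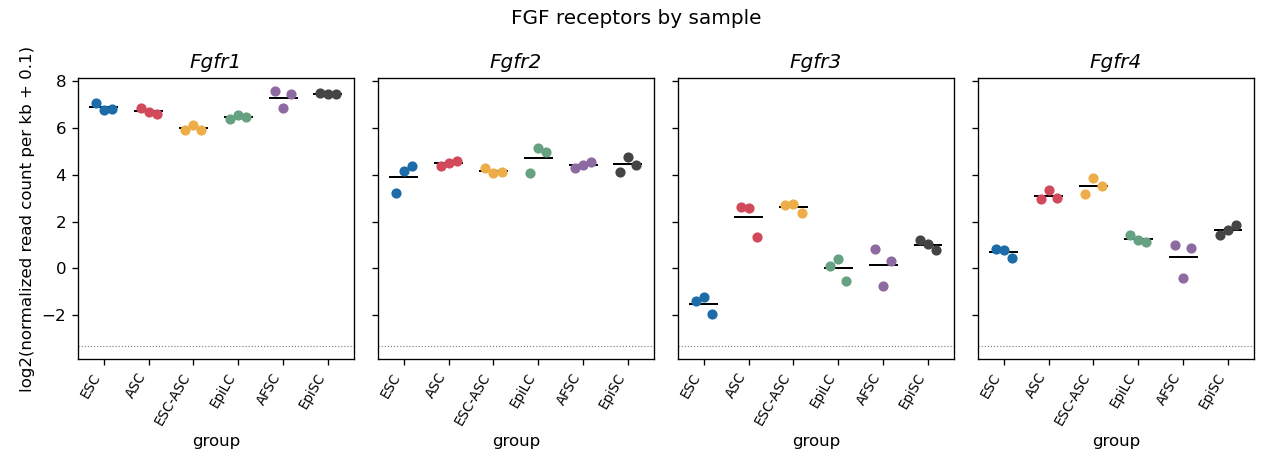
Levels of the 4 FGF receptors in every sample, as log2 of normalized read counts per kb plus 0.1 (vertical axis), by group (horizontal axis). Points are samples, bars the mean of the 3 logged values and the dotted line a count of 0. *Fgfr1* is lowest in ESC-ASCs (63.2 on average), and *Fgfr3* and *Fgfr4* are highest in ASCs and ESC-ASCs (4.76 to 11.6 on average).

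The values of *Fgfr2* carry a limit that comes from its gene model. Its exons span chr7:130162451-133123350, and the last exons of the model, chr7:133081757-133081860 and chr7:133123141-133123350, lie wholly within exons of *Ctbp2*, a transcriptional co-repressor gene on the same strand. They make up 314 bases, or 3.04% of the exon length of *Fgfr2* and 5.05% of that of *Ctbp2*, and the counting assigned a fragment to every gene it overlapped. The *Fgfr2* count was 11 to 24.5% of the *Ctbp2* count in every library (median 16.1%). Over the 18 libraries the logged counts of *Fgfr2* and *Ctbp2* had a Pearson r of 0.917, to which differences in depth also contribute. How many *Fgfr2* fragments came from *Ctbp2* transcripts cannot be told from counts per gene.

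As counted, *Fgfr2* had 9.34, 17.7 and 20.9 normalized read counts per kb in ESC samples, 20.9, 22.6 and 23.7 in ASC samples, 19.6, 16.7 and 17.3 in ESC-ASC samples, and 16.7, 35.6 and 31.7 in EpiLC samples. The AFSC samples had 19.4, 21.1 and 23.1 and the EpiSC samples 17.4, 27.4 and 21.3. No neighbours in its order of groups differed beyond their spread. The higher level in EpiLCs than in ESCs was called (log2 difference 0.79 ± 0.262, adjusted p = 0.0152), although samples overlapped, and was lost without ESC replicate 1 (adjusted p = 0.0717), EpiLC replicate 2 (0.0955) or EpiLC replicate 3 (0.0557). ESC replicate 1 and EpiLC replicate 1 were the lowest of their groups for *Fgfr2*, and *Ctbp2* had its lowest count of the series, 402, in ESC replicate 1.

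**Figure D4:**
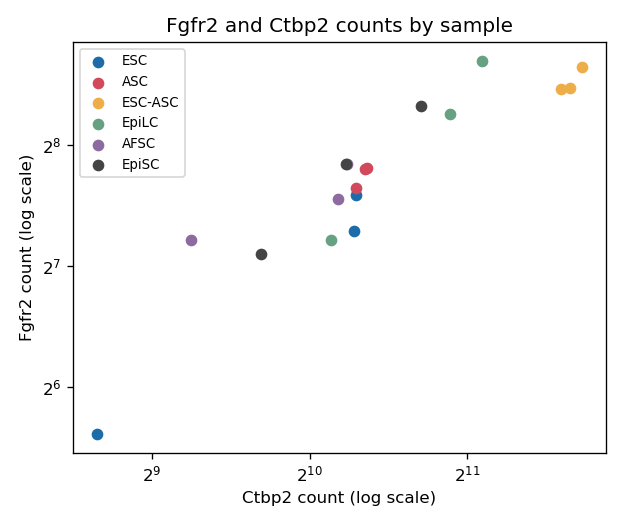
Fragment counts of *Fgfr2* (vertical axis, log scale) against those of *Ctbp2* (horizontal axis, log scale), 1 point per library and coloured by group. The points follow a single band in which the *Fgfr2* count is 11 to 24.5% of the *Ctbp2* count.

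With all 4 receptors, *Fgfr1* made up 86.8% ± 4.75 of their summed level in ESCs, 74.7% ± 2.01 in ASCs, 64.0% ± 0.745 in ESC-ASCs, 74.6% ± 5.3 in EpiLCs, 86.8% ± 2.68 in AFSCs and, for EpiSCs, 86.7% ± 2.34. Without *Fgfr2* the share of *Fgfr1* was 96.5 to 98.5% on average in the 4 groups outside ABCL, 88.8% ± 1.81 in ASCs and 78.3% ± 1.49 in ESC-ASCs. The rest in ESC-ASCs was then 14.3% ± 2.13 *Fgfr4* and 7.47% ± 0.841 *Fgfr3*, and in ASCs 7.23% ± 1.22 *Fgfr4* and 3.94% ± 1.45 *Fgfr3*. The share of *Fgfr1* in EpiLCs thus came to 96.5% ± 0.553 once the *Fgfr2* count was left out, while ASCs and ESC-ASCs remained below the other groups. The longest coding transcript was also used as the length, with *Fgfr2* kept. In ESC-ASCs *Fgfr4* then went from 11.7% to 6.51% and *Fgfr3* from 6.11% to 5.37%. In ASCs *Fgfr4* went from 6.07% to 3.29% and *Fgfr3* from 3.32% to 2.86%. The lead of *Fgfr4* over *Fgfr3* in ABCL thus depends on the length used.

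The comparisons of whole groups were read against the share of all tested genes that passed an adjusted p of 0.05. ASCs and ESCs, both positive for naive markers, differed in 5 of the 9 members, with 50.3% of all genes called. *Fgf4* was lower in ASCs, and *Fgf15*, *Fgfr3* and *Fgfr4* were higher, with *Fgf5* the call at the floor. *Fgf8* (log2 difference 0.43), *Fgf17* (0.50), *Fgfr1* (-0.19) and *Fgfr2* (0.44) did not pass.

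ASCs and the AFSCs they came from differed in 8 of 9 members, with 64% of all genes called. *Fgf4*, *Fgfr3* and *Fgfr4* were higher in ASCs, and *Fgf5*, *Fgf8*, *Fgf15*, *Fgf17* and *Fgfr1* lower. *Fgf8* had a fitted log2 difference of -7.01 ± 0.33 (adjusted p = 2.12e-12) and *Fgf17* of -2.11 ± 0.27 (adjusted p = 1.78e-06). ASCs and EpiSCs also differed in 8 of 9 members, with 66.5% of all genes called; both comparisons use the same ASC samples. *Fgf4*, *Fgfr3* and *Fgfr4* were again higher in ASCs and the same 5 members lower, *Fgf4* being 33.3-fold higher in ASCs (adjusted p = 3.18e-15) and *Fgf15* 40.6-fold lower (adjusted p = 1.88e-13). With a log2 difference beyond 2 as well, 6 of 9 members passed for ASCs against AFSCs (19.4% of all genes) and 5 for ASCs against EpiSCs (22.5%). *Fgfr2* was the member that did not pass in either.

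EpiLCs, the transient epiblast-like state, differed from ESCs in 7 of 9 members, with 55.3% of all genes called. The ligands *Fgf5*, *Fgf8* (log2 difference 4.88 ± 0.391, adjusted p = 3.28e-09) and *Fgf15* (count ratio 194, 95% counting interval 83 to 599, adjusted p = 8.62e-13) rose by more than 2 on the log2 scale, where 17.7% of all genes passed both thresholds. *Fgf4* was 1.48-fold lower (adjusted p = 0.000452). EpiSCs differed from ESCs in 8 of 9 members, with 61.2% of all genes called. *Fgf8* had a count ratio of 605 (95% counting interval 338 to 1210; adjusted p = 8.76e-14), *Fgf15* one of 745 (319 to 2300; adjusted p = 1.4e-14), *Fgf17* was 6.30-fold higher (adjusted p = 2.2e-07) and *Fgf4* was 46.7-fold lower (adjusted p = 1.1e-15). AFSCs and EpiSCs, the primed cell types, differed in 5 of 9 members, with 39.4% of all genes called. *Fgf4* was higher in AFSCs and *Fgf5*, *Fgf8*, *Fgf15* and *Fgfr4* were higher in EpiSCs, while the means of *Fgf17* (37.0 and 38.5) and *Fgfr1* (161 and 176) were within the spread.

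The move into ABCL was made from ESCs and from AFSCs, and the 4 groups concerned share no sample. The labels do not say which ESC line was moved, and the ESC-ASC count tables carry a sample name unlike those of the ESC tables, so a difference between lines cannot be told apart from the change of medium. ESC-ASCs differed from ESCs in 5 of 9 members, with 60.1% of all genes called: *Fgf15*, *Fgf17*, *Fgfr3* and *Fgfr4* were higher and *Fgfr1* lower, while *Fgf4* had a log2 difference of -0.19 (adjusted p = 0.175). The change from ESCs minus the change from AFSCs was itself called for 6 of 9 members, with 58.5% of all genes called. *Fgf4* rose by 2.66 ± 0.128 from AFSCs but not from ESCs, a difference of -2.84 ± 0.172 (adjusted p = 6.15e-11). *Fgf8* and *Fgf17* fell from AFSCs, while from ESCs *Fgf17* rose by 2.18 ± 0.295 and *Fgf8* did not pass (0.87 ± 0.54), with differences of 7.88 ± 0.606 for *Fgf8* (adjusted p = 1.83e-09) and 4.29 ± 0.399 for *Fgf17* (adjusted p = 2.62e-08). *Fgf15* fell by 1.07 ± 0.222 from AFSCs and rose from ESCs (difference 6.14 ± 0.453, adjusted p = 9.86e-10), a size that rests on 1 to 3 counts per ESC library. *Fgfr4* rose from both sources, by 2.91 and 2.53, and the difference of 0.38 ± 0.538 did not pass (adjusted p = 0.604), which with so wide an error does not show that the changes were equal. *Fgfr1* was lower in ABCL on both routes (difference -0.29 ± 0.212, adjusted p = 0.258).

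**Figure D5:**
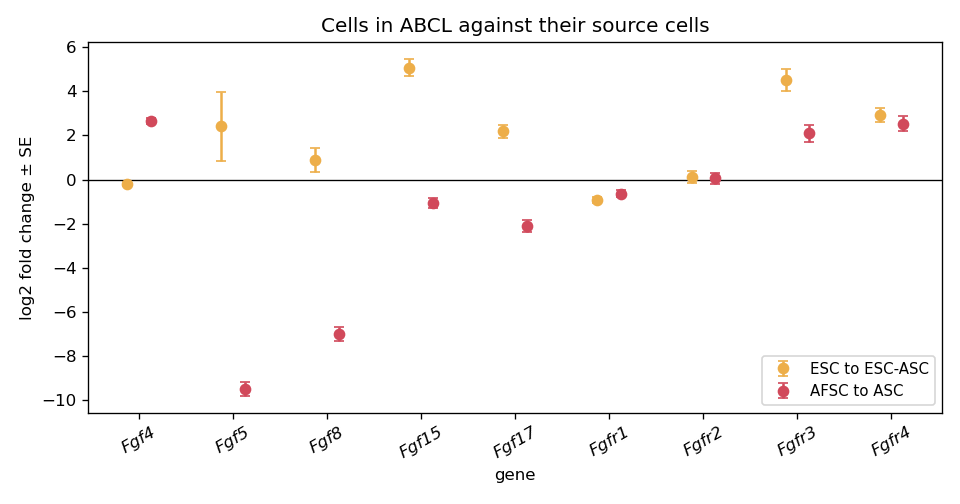
Log2 fold change ± SE (vertical axis) of the 9 members (horizontal axis) in ESC-ASCs against ESCs and in ASCs against AFSCs, with 3 samples per group. *Fgfr3*, *Fgfr4* and *Fgfr1* lie on the same side of 0 on both routes, while *Fgf8*, *Fgf15* and *Fgf17* lie below 0 from AFSCs and above 0 from ESCs, *Fgf8* without passing the test. The value of *Fgf5* from ESCs rests on 0 to 2 counts per library.

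The end points of both routes, ESC-ASCs and ASCs, differed in 4 of 9 members, a share no higher than the 50.7% of all genes called, and none of the 4 passed a log2 difference of 2, which 9.08% of all genes did. *Fgf17* (3.21-fold) and *Fgf15* (1.94-fold, adjusted p = 0.000999) were higher in ESC-ASCs and *Fgfr1* was lower. *Fgf4* was 1.23-fold higher (adjusted p = 0.0385), a call that was lost without normalization factors (adjusted p = 0.374), without ASC replicate 2 or 3 (adjusted p = 0.102 and 0.151) and without ESC-ASC replicate 1 or 2 (0.0635 and 0.139).

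Among the other FGF genes, those with a mean of at least 10 per kb in some group were *Fgf3*, *Fgf10*, *Fgf11*, *Fgf13*, *Fgf18*, *Fgf21*, *Fgf22* and the decoy-like receptor *Fgfrl1*, which lacks the kinase domain. *Fgf3*, the neighbour of *Fgf4* on chromosome 7, was at 62.9 ± 10.2 in ESCs, 41.1 ± 7.19 in ASCs and 25.1 ± 4.67 in ESC-ASCs. EpiLCs had 8.85 ± 1.27, AFSCs 1.79 ± 0.562 and EpiSCs 34.6 ± 3.75. It therefore shared the low level of *Fgf4* in AFSCs but not in EpiSCs. *Fgf18*, the third member of the *Fgf8* subfamily, was at 59.8 ± 4.95 in EpiSCs and at most 9.27 ± 2.74 elsewhere. *Fgf10* was highest in ESCs (18.4 ± 1.87) and had 0 counts in the AFSCs. The intracellular FGFs *Fgf11* and *Fgf13* peaked in ESC-ASCs (32.4 ± 3.47) and ASCs (25.8 ± 5.45), respectively, and *Fgf21* and *Fgf22* reached 10.2 ± 5.15 in EpiLCs and 11.1 ± 5.38 in EpiSCs on at most 17 counts per library. *Fgfrl1* was at 205 ± 30.2 in ESCs, above *Fgfr1* there, and at 14.9 ± 1.75 to 43.3 ± 2.77 in the other groups (ASCs against ESCs, log2 difference -2.27 ± 0.157, adjusted p = 2.01e-09).

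*Fgf2*, the ligand added to the AFSC medium, was itself low in all groups, at 0.613 ± 0.3 to 2.80 ± 0.669 per kb. Of the 17 other FGF genes that are not receptors, a list that includes intracellular FGFs such as *Fgf11* and *Fgf13*, 8 could be tested. In ASCs against ESCs, 4 were higher and 2 lower, where 26.4% of all genes were higher and 23.9% lower (median log2 difference 0.24, against 0.02 over all genes), from *Fgf1* (5.43, adjusted p = 1.23e-05) to *Fgf10* (-1.15, adjusted p = 0.0198). The size for *Fgf1* rests on 0 to 1 counts per ESC library, against 13 to 28 in ASCs, and is no bound. The klotho co-receptors *Kl* and *Klb*, which hormone-like FGFs such as FGF15 need, were at no more than 0.562 ± 0.38 and 1.26 ± 0.498 per kb in any group.

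Genes that bind or present FGFs at the cell surface were followed as 25 genes of heparan sulfate synthesis, its core proteins and FGF-binding proteins, 24 of them tested. In ASCs against ESCs 13 were higher and 3 lower, where 26.4% and 23.9% of all genes were, led by *Hs6st2*, a sulfotransferase of heparan sulfate (log2 difference 5.46, adjusted p = 3.48e-06). In ESC-ASCs against ASCs 1 was higher and 17 were lower (23% and 27.7% of all genes). *Fgfbp1*, a carrier that releases FGFs from the matrix, stood at 452 ± 26.1 per kb in AFSCs and at 5.88 ± 1.02 to 53.7 ± 13.2 in the other groups.

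Genes that ERK activity is known to induce were followed in a pair of lists. Of 12 tested feedback inhibitors, 8 were higher and 1 lower in ASCs than in ESCs (median log2 difference 1.58; 26.4% of all genes higher and 23.9% lower). In EpiSCs against ESCs 10 were higher and none lower (29.2% and 32% of all genes). In ESC-ASCs against ESCs 7 were higher and 3 lower (30.6% and 29.6% of all genes). *Spry4*, a Sprouty inhibitor of the pathway, was at 1.06 ± 0.564 per kb in ESCs, 132 ± 6.71 in ASCs and 58.4 ± 5.74 in ESC-ASCs. EpiLCs had 71.9 ± 18, AFSCs 39.6 ± 4.91 and EpiSCs 24.9 ± 1.98. *Dusp7*, a phosphatase of ERK, was the inhibitor that was lower in ASCs than in ESCs (log2 difference -0.84, adjusted p = 0.000358). *Dusp4*, another DUSP phosphatase, led the list in ESC-ASCs against ESCs (6.67, adjusted p = 8.34e-10).

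Of 9 tested target transcription factor genes of ERK, 6 were higher and 1 lower in ASCs than in ESCs (26.4% and 23.9% of all genes), and 1 was higher and 6 were lower in ESC-ASCs than in ASCs (23% and 27.7% of all genes). *Egr1*, an immediate early gene, was at 575 ± 38.5 per kb in ASCs but at 10.7 ± 0.896 in ESC-ASCs and 6.85 ± 1.04 in ESCs (ESC-ASCs against ASCs, log2 difference -5.74, adjusted p = 2.84e-15). It was at 394 ± 13.5 in EpiLCs, 684 ± 43.8 in AFSCs and 375 ± 43.0 in EpiSCs. ESC-ASCs and ASCs, both in ABCL, did not overlap for *Egr1*. Of 20 signal transducers from the receptor to ERK, 3 were higher and 4 lower in ASCs than in ESCs, beside 26.4% and 23.9% of all genes. *Gab1*, a docking protein of receptor tyrosine kinases, was at 47.7 ± 2.96 in AFSCs and 34.7 ± 4.83 in EpiSCs and at 272 to 398 on average in the other 4 groups.

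The genes whose logged levels followed each member most closely over the 18 samples were named by the highest Pearson r among the 16901 tested genes, as a description with no test, since the samples share their groups. *Fgf4* was closest to *EU599041* (0.986), *Dppa5a* (0.983) and *Bcl2l14* (0.983), *Dppa5a* being a gene of naive pluripotent cells. *Fgf5* was closest to *Cnr1* (0.993), *Calcr* (0.992) and *Kcnq3* (0.981), the first of these encoding a cannabinoid receptor. *Fgf8* was closest to *Eno3* (0.99), *Cnih3* (0.977) and *Hacd1* (0.977). *Fgf15* was closest to *Gm39119* (0.981), which overlaps it on the other strand by 26 exon bases, then to *Stk39* (0.978) and *Hsd17b7* (0.972).

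For the remaining members the closest genes had r of 0.854 to 0.952. They were *Coq2*, *Fam149b* and *Prkra* for *Fgf17*, *Adam1b*, *Brf1* and *Ttc9b* for *Fgfr1*, *Fbxl18*, *Larp1* and *Txnrd1* for *Fgfr2*, *Tmem86a* and *Micall2* for *Fgfr3*, and *Pxylp1*, *Myl4* and *Macrod1* for *Fgfr4*. Among the members themselves the highest r was that of *Fgf5* and *Fgf8* (0.937) and the lowest that of *Fgf4* and *Fgf8* (-0.897).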

How the data were processed

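RNA-seq counts of 18 samples were used. The authors mapped paired reads to GRCm38 with TopHat2 and deposited raw counts of fragments per gene, made with featureCounts 1.5.0-p1 on exons of Ensembl release 86. The counting ignored strand, kept fragments that map to several places, and gave a fragment to each gene it overlapped by at least 10 bases, so overlapping genes share counts. Groups came from the sample titles. The 9 members and all gene lists were chosen with earlier results of these data known. Named genes were the members, the 3 genes most like each (1 of them is not reported here), the extremes of each list, and other FGF genes with a mean of at least 10 per kb in a group. *Fgf2*, *Kl*, *Klb* and genes sharing exons with a member were named after their values were seen.

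Tests used edgeR 4.0.16 (R 4.3.3, limma 3.58.1): TMM normalization, all 18 samples in 1 quasi-likelihood fit with robust estimation, and Benjamini-Hochberg adjustment per comparison. The SE of a log2 difference was worked back from the test, as its absolute size over the square root of the F statistic. Levels used DESeq2 1.42.0 size factors and, for log2 values, a pseudocount of 0.1. Floors were 3 counts per library. Intervals at 95% cover counting error only. The steps were tested on simulated data with 1 dispersion for all genes and no outlying replicate, unlike these data. Of genes changed by a log2 of 1, edgeR recovered 73% and DESeq2 69%, and both recovered 100% at 2. Of all calls, 7.49% were false with edgeR and 9.63% with DESeq2. Alternatives were DESeq2, other scalings and filters, fewer groups in the fit, a replicate block and left-out libraries. Leaving out every first replicate, dropping *Fgfr2* from shares and using transcript lengths were added after the data were seen. Figures used Python and matplotlib. Symbols were found for 35514 of 35773 gene IDs. Bisulfite and embryo data were not analysed here.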

Additional observations from a re-analysis of the deposited data

Results flagged for a closer look

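The change on the move into ABCL medium differed between ESCs and AFSCs as source cells for 6 members, by the test of the difference itself (edgeR quasi-likelihood test, adjusted over 16901 genes, of which 58.5% were called). The difference, as the log2 change from ESCs minus that from AFSCs, was -2.84 for *Fgf4* (-0.19 from ESCs and 2.66 from AFSCs; adjusted p = 6.15e-11). It was 7.88 for *Fgf8* (0.87 and -7.01; adjusted p = 1.83e-09), 6.14 for *Fgf15* (5.07 and -1.07; adjusted p = 9.86e-10) and 4.29 for *Fgf17* (2.18 and -2.11; adjusted p = 2.62e-08). For *Fgf15* the ESC libraries held 1 to 3 counts, and the size was 7.035 without ESC replicate 1. The difference was 2.42 for *Fgfr3* (4.51 and 2.09; adjusted p = 0.00984), where both changes were upward, the ESC libraries held 1 to 2 counts, and the difference no longer passed without replicate 1 of every group (adjusted p = 0.0574). It was 11.9 for *Fgf5* (adjusted p = 4.07e-05), a fitted size that depends on the 0 to 2 counts per library in ESCs and ESC-ASCs and is no bound. ESC-ASC libraries were also the deepest, and neither depth nor the ESC line moved, which the labels do not name, can be told apart from that group.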

How the results depend on the processing

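Of 1099 log2 fold changes of the members recomputed with another tool, scaling, filter, set of groups or block or with 1 library left out, 1037 kept their direction and their side of the threshold, 46 no longer passed, 2 newly passed and 14 changed sign. The number of members called for ASCs against ESCs, 5, was 3 without normalization factors and 3 with only those groups in the fit, in both cases without *Fgf4* and *Fgf5*. The number for AFSCs against EpiSCs, 5, was likewise 3 under each of these, without *Fgf5* and *Fgfr4*. Leaving out 1 library gave 4 to 5 called members for ASCs against ESCs, 4 to 6 for EpiLCs against ESCs (7 with all libraries; 4 without ESC replicate 1) and 3 to 5 for AFSCs against EpiSCs (3 without EpiSC replicate 2). The counts of the other 6 comparisons stayed within 1.5 times.

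The changes of sign were all in differences that did not pass the test. Without normalization factors *Fgfr1* in ASCs against ESCs was 0.020, and in AFSCs against EpiSCs *Fgf17* was 0.027 and *Fgfr2* 0.029. This scaling moved the median log2 difference of all genes by 0.20 for ASCs against ESCs, 0.14 for ASCs against EpiSCs and -0.14 for ESC-ASCs against ASCs, and by less than 0.1 for the other 6. With 1 library left out, *Fgfr2* ranged from -0.0089 to 0.11 in ASCs against AFSCs, from -0.15 to 0.20 in ASCs against EpiSCs, from -0.20 to 0.15 in AFSCs against EpiSCs, from -0.14 to 0.35 in ESC-ASCs against ESCs and from -0.19 to 0.30 for the difference of the moves into ABCL. In AFSCs against EpiSCs *Fgf17* ranged from -0.14 to 0.068 and *Fgfr1* from -0.25 to 0.074. The cause was not tested.

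Without replicate 1 of every group, an alternative chosen after seeing the data, *Fgfr2* was -0.061 in ASCs against EpiSCs, -0.18 in ESC-ASCs against ESCs and -0.25 for the difference of the moves. The groups that held their place in the order of 6 were then 4 for *Fgf15*, 4 for *Fgf17*, 4 for *Fgfr3* and 2 for *Fgfr2*. No longer passing were the difference of the moves for *Fgfr3* (2.25, adjusted p = 0.0574), *Fgf5* in ASCs against ESCs (adjusted p = 0.0805), *Fgfr1* and *Fgfr3* in EpiLCs against ESCs (adjusted p = 0.0906 and 0.0783) and *Fgfr4* in EpiSCs against ESCs (adjusted p = 0.0566). Newly passing was *Fgfr2* in EpiSCs against ESCs (0.33, adjusted p = 0.0481) and in ESC-ASCs against ASCs (-0.45, adjusted p = 0.0102). TMM size factors changed no order.

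Whether replicate numbers pair the samples was not settled. Deviations of same-numbered samples correlated at -0.114 to 0.332 (median 0.034, 16 of 45 pairs over 0.1), with no differently numbered pairs set beside them. Over all genes, the replicate block raised the number called in each of the 9 comparisons, from 8503 to 8962 for ASCs against ESCs. With the replicate block, all 81 log2 fold changes kept their direction and side of the threshold, and the number of members called was 4 to 8 over the 9 comparisons, equal in each to that without the block.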
